A study of Mus musculus with 4 samples.

Results

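The PDZ-LIM genes Pdlim1, Pdlim3, Pdlim4, Pdlim5, Pdlim7 and Ldb3, the actin regulator gene Enah and the reticulon gene Rtn4 were followed in nuclei of adult mouse hearts. They are 8 of the 32285 mouse genes in the deposited matrices, were taken by symbol, and all 8 were found in the 4 libraries. All mice were C57BL/6 and 6 months old, and each library pooled nuclei from 3 hearts. The libraries were a homozygous Rbm20 mutant that had received gene editing correction (here the corrected library), the homozygous mutant (Rbm20_homo), the heterozygous mutant (Rbm20_het) and the wild type (WT). The labels give neither the mutated residue nor the promoter, vector or time of the editing. With 1 library for each genotype there was no replicate error and no test between genotypes, so every difference below is one between libraries of pooled hearts, and every interval is a 95% interval that covers counting error only.

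RBM20 is an RNA-binding protein of heart and skeletal muscle that controls the splicing of sarcomere and calcium-handling transcripts, with titin as its best known target. PDZ-LIM proteins carry an N-terminal PDZ domain, which binds alpha-actinin at the Z-disc and on actin stress fibres, and a single or several LIM domains, which bind kinases and other partners. Ldb3 (also called Cypher or ZASP) and Pdlim5 (ENH) are the members best known from the Z-disc of heart muscle, and Ldb3 is among the reported splicing targets of RBM20. Enah (Mena) promotes the growth of actin filaments and lies at the intercalated disc, and Rtn4 encodes Nogo, which shapes the tubules of the endoplasmic reticulum. The 3′ assay counts all isoforms of a gene together, so nothing below measures splicing.

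The promoter windows of the 4 genes that differed most between Rbm20_homo and WT cardiomyocytes are shown first. The 4 genes were picked on that difference, and whether they share any regulation was not tested. The windows come from RefSeq on GRCm38.p6 and run from 250 bases before to 50 bases after an annotated start. All 8 genes had a window there, 12 windows in all. For Pdlim5, with 2 annotated starts, and Rtn4, with 3, the most upstream one is printed. Capitals mark the MCAT element CATTCC and the cyclic AMP response element TGACGTCA on either strand. The ends of these motifs share letters, so they could overlap, but no 2 matches did in the windows shown.
Pdlim3 (chr8:45885237-45885536, plus strand): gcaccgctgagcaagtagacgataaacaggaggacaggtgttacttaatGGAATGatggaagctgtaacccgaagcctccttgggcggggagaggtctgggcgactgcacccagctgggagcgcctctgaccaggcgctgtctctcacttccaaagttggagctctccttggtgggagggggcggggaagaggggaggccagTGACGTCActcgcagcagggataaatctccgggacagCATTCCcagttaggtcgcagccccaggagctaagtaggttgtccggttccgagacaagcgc
Enah (chr1:182019931-182020230, minus strand): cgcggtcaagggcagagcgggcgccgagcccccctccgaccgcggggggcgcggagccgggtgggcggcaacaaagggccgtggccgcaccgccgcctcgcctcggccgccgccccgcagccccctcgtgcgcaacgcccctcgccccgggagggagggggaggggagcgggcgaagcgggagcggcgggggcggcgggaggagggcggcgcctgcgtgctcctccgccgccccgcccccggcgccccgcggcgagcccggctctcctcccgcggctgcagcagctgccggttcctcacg
Pdlim5 (chr3:142395647-142395946, minus strand): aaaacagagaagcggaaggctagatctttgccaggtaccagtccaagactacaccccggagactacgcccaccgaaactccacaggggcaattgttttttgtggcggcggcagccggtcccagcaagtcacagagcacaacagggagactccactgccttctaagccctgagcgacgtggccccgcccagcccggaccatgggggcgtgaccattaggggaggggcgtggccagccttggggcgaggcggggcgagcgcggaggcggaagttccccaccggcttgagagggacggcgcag
Rtn4 (chr11:29692648-29692947, plus strand): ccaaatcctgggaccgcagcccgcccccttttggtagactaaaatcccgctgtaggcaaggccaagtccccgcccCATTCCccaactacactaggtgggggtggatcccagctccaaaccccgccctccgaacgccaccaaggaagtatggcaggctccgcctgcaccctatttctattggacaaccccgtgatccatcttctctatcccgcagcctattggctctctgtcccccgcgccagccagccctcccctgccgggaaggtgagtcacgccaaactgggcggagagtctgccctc
The Pdlim3 window held 2 copies of CATTCC, which begin 201 and 11 bases before the start, and 1 copy of TGACGTCA, which begins 48 bases before it. The Rtn4 window held 1 CATTCC, 175 bases before the start, and the Enah and Pdlim5 windows held neither motif. Among 32851 promoter windows of the same length, 14.7% held CATTCC and 1.79% held TGACGTCA. The Enah window was 83.3% G and C and held 6 copies of GGGCGG. The Pdlim1 window also held 6, and the Rtn4, Pdlim3 and Pdlim5 windows shown held 4, 2 and 1. At least 1 copy was found in 35.7% of all windows. Both Ldb3 windows, which overlap, held the same CArG box (1.63% of windows), and none of the other 10 did. These matches describe letters in the windows only.

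The libraries held 15153, 11611, 9734 and 9494 barcodes in the order corrected, Rbm20_homo, Rbm20_het and WT, with 37180791 to 52370368 UMIs each. After filtering, 8673 to 13120 nuclei were left per library, and library pairs shared 26 to 56 barcodes. A ventricular cardiomyocyte-like class held 3035 corrected, 2946 Rbm20_homo, 2379 Rbm20_het and 2891 WT nuclei, and all 12 of its markers were detected in each library, at summed levels of 62323 to 76469 CPM (the UMIs of a gene for every 1000000 UMIs of the class, mitochondrial ones left out). The atrial markers Sln and Bmp10 and the skeletal muscle markers Myh2 and Myh4 were at 0 UMIs in it in all 4 libraries. Other markers of both lists were detected. The 6 atrial markers summed to 42.6 CPM in the corrected, 939 in the Rbm20_homo, 36.3 in the Rbm20_het and 16.01 in the WT cardiomyocytes. The 7 skeletal muscle markers summed to 1.17 CPM in the corrected, 4.23 in the Rbm20_homo, 2.48 in the Rbm20_het and 1.52 in the WT cardiomyocytes. Rbm20 itself had 4710 CPM in the corrected, 3819 in the Rbm20_homo, 4577 in the Rbm20_het and 4555 in the WT cardiomyocytes, and a point mutation would not be seen in such counts. UMIs of the added features ABE_C and ABE_N numbered 8542 in the corrected library and 0 in the other 3. The Rbm20_homo cardiomyocytes stood apart from the rest. Malat1, a nuclear non-coding RNA, took 24.1% of their UMIs against 14.5% to 15.5% in the other libraries, their median mitochondrial share was 0.0900% against 0.166% to 0.205%, and 2858 of their nuclei fell in a cluster that held 249 corrected, 111 Rbm20_het and 42 WT nuclei. Over 6831 genes with enough counts, the median log2 ratio of Rbm20_homo over WT was −0.20 on the CPM scale, and between −0.03 and 0.00 after 3 other scalings.

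In the ventricular cardiomyocyte-like nuclei, 4 of the 8 genes were higher in Rbm20_homo than in WT by more than 1.5-fold at the near end of the interval: Pdlim3, Enah, Rtn4 and Pdlim5. The other 4 (Ldb3, Pdlim4, Pdlim7 and Pdlim1) did not pass that bound in either direction. The same rule, which also sets a minimum of 50 UMIs where the CPM is higher, called 7.09% of 11894 genes higher and 12.2% lower in this comparison. The median log2 ratio of the 8 genes was 0.65, beside −0.19 over all genes tested.

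**Figure D1:**
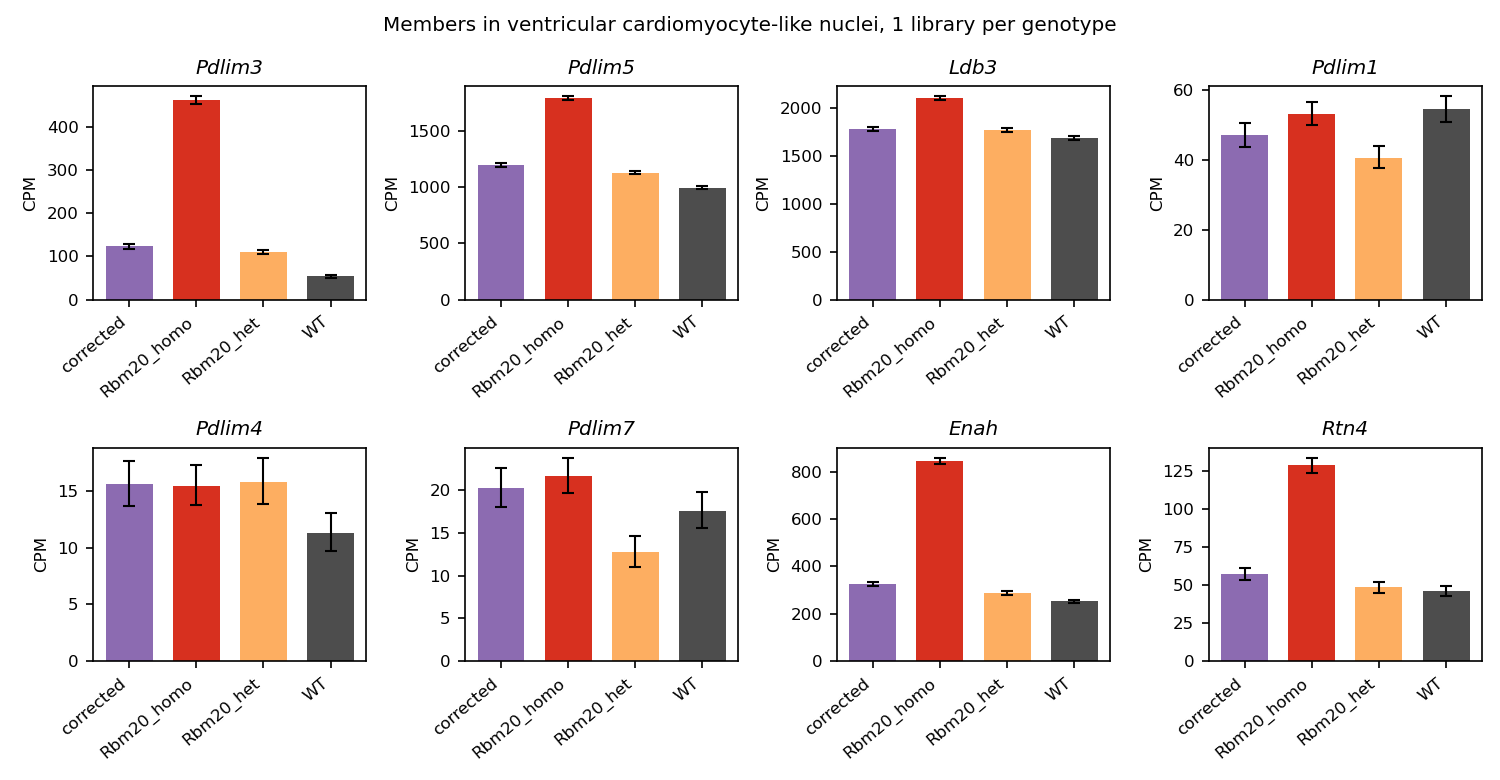
Level (CPM, linear axis from 0) of each gene in ventricular cardiomyocyte-like nuclei of the corrected, Rbm20_homo, Rbm20_het and WT libraries; bars are sums over nuclei of 1 library and error bars are 95% Poisson intervals. Pdlim3, Enah, Rtn4 and Pdlim5 are highest in Rbm20_homo, with Pdlim3 at 461 CPM there and 53.9 CPM in WT.

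Pdlim3 encodes ALP, the actinin-associated LIM protein of muscle Z-discs (GRCm38 chromosome 8, 45885461 to 45919548, plus strand). It had 1896 UMIs or 123 CPM in the corrected, 9046 UMIs or 461 CPM in the Rbm20_homo, 1684 UMIs or 110 CPM in the Rbm20_het and 852 UMIs or 53.9 CPM in the WT cardiomyocytes. The 4 Poisson intervals did not overlap: 118 to 129 CPM in the corrected, 452 to 471 in the Rbm20_homo, 105 to 115 in the Rbm20_het and 50.3 to 57.6 in the WT library. Rbm20_homo was 8.56-fold higher than WT (7.98 to 9.19). A nucleus carried on average 0.625 Pdlim3 UMIs in the corrected, 3.07 in the Rbm20_homo, 0.708 in the Rbm20_het and 0.295 in the WT library. Pdlim3 was thus the gene of the 8 with the largest ratio, and the only member for which Rbm20_het and the corrected library also passed the bound against WT.

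Enah (chromosome 1, 181896384 to 182019990, minus strand) had 324 CPM in the corrected, 847 in the Rbm20_homo, 287 in the Rbm20_het and 252 in the WT cardiomyocytes. The ratio of Rbm20_homo over WT was 3.36 (3.25 to 3.48), from 16607 and 3983 UMIs. Enah was high in 1 library and within 1.29-fold of WT in the other 2. Its gene overlaps 4 gene models that await experimental support on its own strand, whose reads could be split from it.

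Rtn4 (chromosome 11, 29692947 to 29744331, plus strand) had 57.4 CPM in the corrected, 129 in the Rbm20_homo, 48.6 in the Rbm20_het and 46.1 in the WT cardiomyocytes. The ratio of Rbm20_homo over WT was 2.80 (2.58 to 3.05). The gene overlaps Eml6 on the opposite strand, and whether counting used the strand is not given in the sources used here. Pdlim5 (chromosome 3, 142239590 to 142395696, minus strand), which links protein kinase C to alpha-actinin, had 1197 CPM in the corrected, 1795 in the Rbm20_homo, 1133 in the Rbm20_het and 999 in the WT cardiomyocytes, a ratio of Rbm20_homo over WT of 1.80 (1.76 to 1.83). Pdlim5 thus moved the least of the 4 genes past the bound.

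Ldb3 (chromosome 14, 34526603 to 34588682, minus strand) had 1780 CPM in the corrected, 2100 in the Rbm20_homo, 1769 in the Rbm20_het and 1681 in the WT cardiomyocytes. Its ratio of Rbm20_homo over WT, 1.25 (1.23 to 1.27), rests on 41166 and 26575 UMIs, so the whole interval lies under the 1.5-fold bound. Of the genes known mainly from non-muscle cells or stress fibres, Pdlim1 (CLP36, chromosome 19, 40221173 to 40271842) had 47.2 CPM in the corrected, 53.3 in the Rbm20_homo, 40.7 in the Rbm20_het and 54.5 in the WT cardiomyocytes. The log2 ratio of Rbm20_homo over WT was −0.03 for Pdlim1 on the CPM scale and lay between −0.05 and 0.21 over 9 other ways of processing, so its sign was not set. Pdlim4 (RIL, chromosome 11, 54054928 to 54069014) had 15.6 CPM in the corrected, 15.5 in the Rbm20_homo, 15.8 in the Rbm20_het and 11.3 in the WT cardiomyocytes. WT was thus the lowest of the 4 for Pdlim4, and the ratio of Rbm20_homo over WT was 1.37 (1.14 to 1.66) on 303 and 178 UMIs. On the log2 scale that is 0.46, and it was 1.25 with nuclei thinned to 1000 UMIs. Pdlim7 (Enigma, chromosome 13, 55495795 to 55513676) had 20.2 CPM in the corrected, 21.6 in the Rbm20_homo, 12.7 in the Rbm20_het and 17.5 in the WT cardiomyocytes, with a ratio of Rbm20_homo over WT of 1.23 (1.06 to 1.44).

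Between Rbm20_het and WT, 1 of the 8 genes passed the bound, Pdlim3, beside 1.93% of 11432 genes higher and 1.87% lower. Its ratio was 2.04 (1.88 to 2.22). The next largest ratios upward were 1.40 for Pdlim4 (1.15 to 1.71), 1.14 for Enah (1.09 to 1.19) and 1.13 for Pdlim5 (1.11 to 1.16). The log2 ratio of Pdlim4, 0.49, was 1.19 after thinning to 1000 UMIs per nucleus, where that of Pdlim3 was 0.87. Pdlim7 at 0.727 (0.602 to 0.876) and Pdlim1 at 0.746 (0.672 to 0.828) were lower in Rbm20_het, short of the bound. Their size depended on the processing. Over 9 other ways of processing, the log2 ratio lay between −0.47 and −0.12 for Pdlim7 and between −0.43 and −0.11 for Pdlim1. The Pdlim3 difference did not pass 2-fold at the near end of the interval, and did not pass 1.5-fold when each nucleus was thinned to 1000 UMIs.

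Rbm20_homo over Rbm20_het gave the same 4 genes as Rbm20_homo over WT, with which it shares the Rbm20_homo library, and 5.12% of 11722 genes higher and 8.08% lower. The ratios were 4.19 for Pdlim3 (3.98 to 4.42), 2.96 for Enah (2.86 to 3.06), 2.65 for Rtn4 (2.44 to 2.88) and 1.58 for Pdlim5 (1.56 to 1.61). Pdlim7 was 1.70-fold higher in Rbm20_homo than in Rbm20_het (1.43 to 2.02), short of the bound.

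In the corrected library, Pdlim3, Enah and Rtn4 were lower than in Rbm20_homo past the bound, 3 of the 8 genes, beside 5.18% of 11762 genes lower and 7.6% higher. The corrected level over the Rbm20_homo level was 0.267 for Pdlim3 (0.254 to 0.280), 0.383 for Enah (0.371 to 0.395), 0.445 for Rtn4 (0.412 to 0.481) and 0.667 for Pdlim5 (0.655 to 0.679), whose interval straddled the bound. Ldb3 was at 0.848 (0.835 to 0.861) of its Rbm20_homo level and the log2 ratio of Pdlim4 was 0.01 (−0.24 to 0.26). Against WT, the corrected library had 1 gene past the bound, Pdlim3 at 2.28-fold (2.10 to 2.48), beside 2.24% of 11485 genes higher and 2.88% lower. The corrected level was 1.29-fold that of WT for Enah (1.23 to 1.34), 1.25-fold for Rtn4 (1.13 to 1.38) and 1.06-fold for Ldb3 (1.04 to 1.08), and the log2 ratio of Pdlim5 was 0.26 (0.23 to 0.29). For Pdlim3, Enah, Rtn4 and Pdlim5 the corrected library thus lay between Rbm20_homo and WT, with every interval against WT clear of equality. These comparisons share libraries, so their values are not independent of each other.

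**Figure D2:**
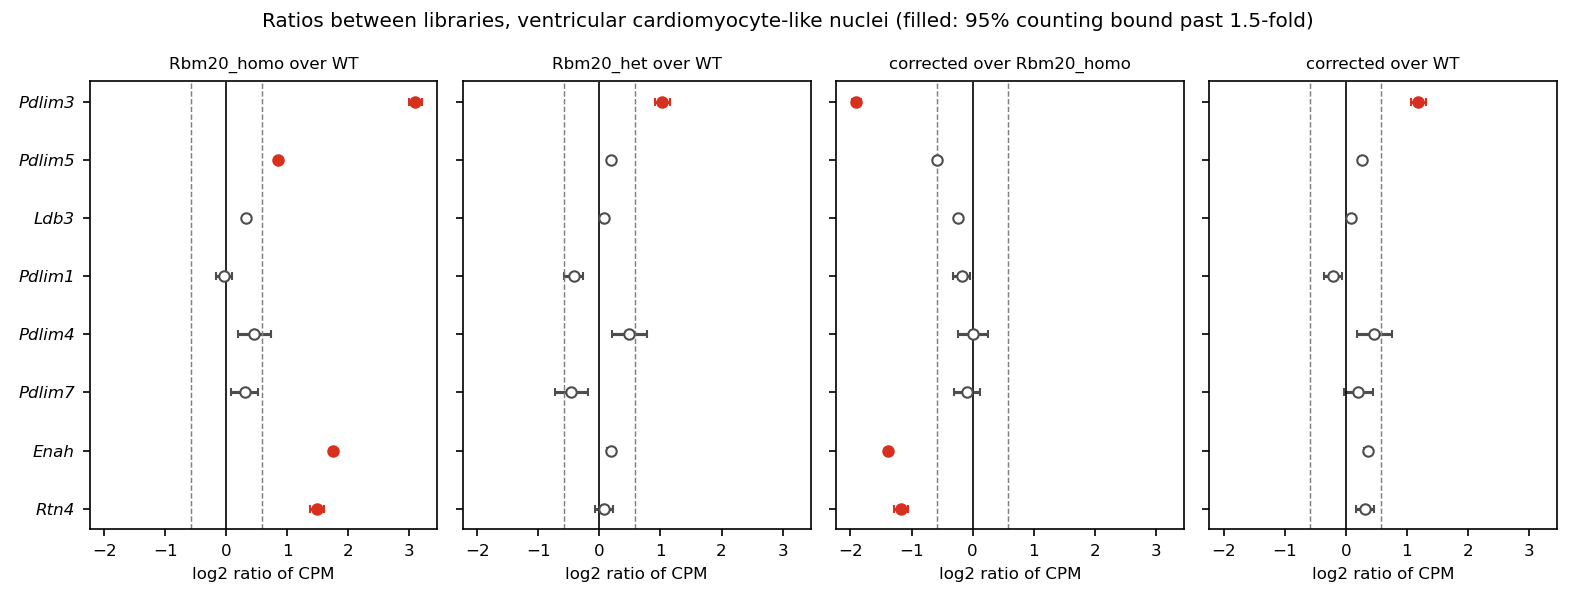
Log2 ratio of CPM between libraries for the 8 genes in ventricular cardiomyocyte-like nuclei, in 4 comparisons; points are ratios of summed UMIs, bars 95% conditional binomial intervals, dashed lines 1.5-fold, and filled points have an interval past it. Pdlim3 is filled in all 4 panels, while Enah and Rtn4 are filled in the 2 panels that involve Rbm20_homo.

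The differences were spread over many nuclei. With each nucleus thinned to 1000 UMIs, which left out 2 to 8 nuclei per library, Pdlim3 was detected in 11.3% of corrected, 35.2% of Rbm20_homo, 8.97% of Rbm20_het and 4.99% of WT cardiomyocytes. Without thinning, the shares were 37.2% in the corrected, 81.6% in the Rbm20_homo, 39.8% in the Rbm20_het and 19.8% in the WT library, at median depths of 4508, 5896, 5692 and 4848 UMIs. For comparison, in macrophage-like nuclei, a non-muscle class with a low Pdlim3 level, the thinned share was 3.29% in the corrected, 4.95% in the Rbm20_homo, 1.37% in the Rbm20_het and 1.49% in the WT library. Nuclei with at least 2 Pdlim3 UMIs of 1000 were 1.06% in the corrected, 10.1% in the Rbm20_homo, 0.842% in the Rbm20_het and 0.485% in the WT library.

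Enah was detected in 25.1% of corrected, 52.0% of Rbm20_homo, 23.4% of Rbm20_het and 20.9% of WT cardiomyocytes after thinning. The thinned shares for Pdlim5 were 64.0% in the corrected, 77.0% in the Rbm20_homo, 65.3% in the Rbm20_het and 57.5% in the WT library. Rtn4 reached 6.05% in the corrected, 11.2% in the Rbm20_homo, 4.55% in the Rbm20_het and 4.43% in the WT library. The order of the libraries by thinned share matched that by CPM for Pdlim3, Enah and Rtn4, whereas for Pdlim5 Rbm20_het lay above the corrected library by share and below it by CPM.

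**Figure D3:**
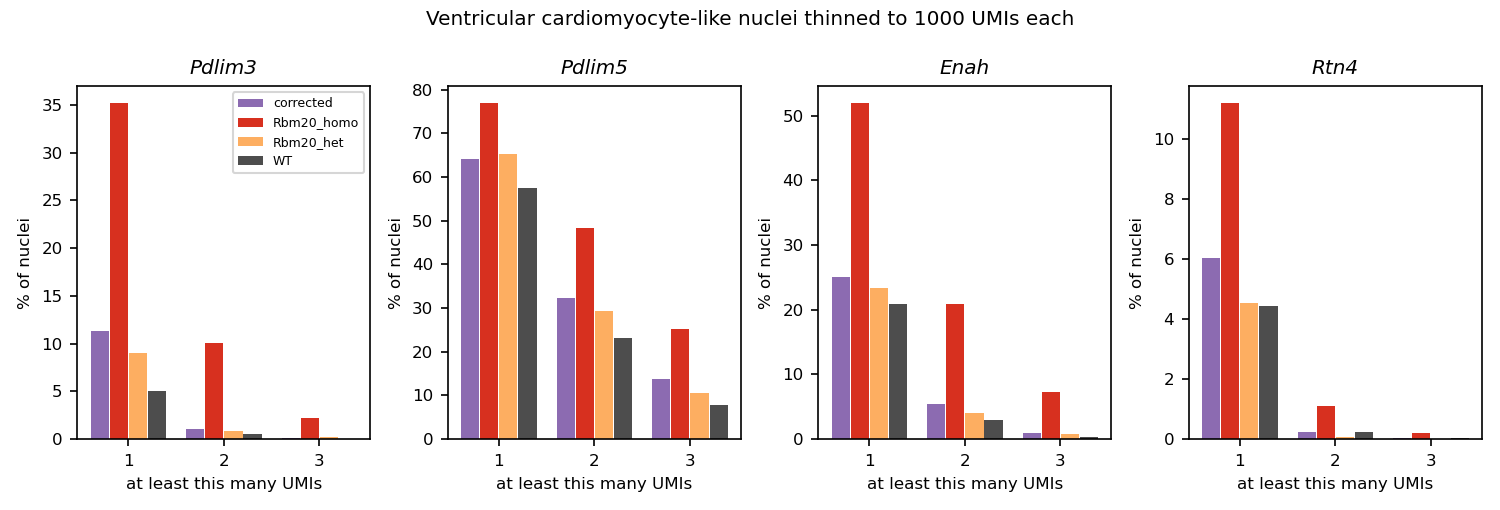
Share of ventricular cardiomyocyte-like nuclei (percent) with at least 1, 2 or 3 UMIs of Pdlim3, Pdlim5, Enah and Rtn4, after each nucleus was thinned to 1000 UMIs, by library (corrected, Rbm20_homo, Rbm20_het, WT). The Rbm20_homo bar is highest at each threshold, at 35.2% of nuclei with a Pdlim3 UMI beside 4.99% in WT.

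Within the Rbm20_homo cardiomyocytes, nuclei with a Pdlim3 UMI had an Enah UMI in 54.9% of cases and nuclei without one in 50.4%. For Enah and Rtn4, the pair with the largest association there, 13.1% of nuclei with an Enah UMI and 9.12% of those without had an Rtn4 UMI. The phi coefficients of all pairs among Pdlim3, Pdlim5, Ldb3, Enah and Rtn4 lay between −0.03 and 0.06 in all 4 libraries, which in counts this sparse is no finding.

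The cardiomyocyte class was made of different clusters in different libraries, although the 8 genes took no part in the clustering. In the cluster of most Rbm20_homo nuclei, Pdlim3 had 229 CPM in the corrected, 466 in the Rbm20_homo, 214 in the Rbm20_het and 240 in the WT nuclei. In the cluster of most WT nuclei it had 114 CPM in the corrected, 300 in the 88 Rbm20_homo, 105 in the Rbm20_het and 50.7 in the WT nuclei. Pdlim3 was therefore highest in Rbm20_homo inside both clusters, and higher in the first cluster than in the second inside every library. Enah had 524 CPM in the corrected, 856 in the Rbm20_homo, 411 in the Rbm20_het and 712 in the 42 WT nuclei of the first cluster. In the second cluster Enah had 307 CPM in the corrected, 507 in the Rbm20_homo, 280 in the Rbm20_het and 244 in the WT nuclei. Rtn4 did not follow that order in the first cluster. It had 98.0 CPM in the corrected, 131 in the Rbm20_homo, 86.2 in the Rbm20_het and 262 in the 42 WT nuclei, the last with an interval of 205 to 330. Poisson intervals do not cover single nuclei with many UMIs. Among all WT cardiomyocytes the largest count in a nucleus was 26 for Rtn4 and 43 for Enah, beside 90th percentiles of 1 and 3. The part of such nuclei in the WT values of the first cluster was not tested.

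In the corrected library, 1192 cardiomyocytes had a UMI of ABE_C or ABE_N, at a median of 5305 UMIs in all, and 1843 had none, at a median of 4018 UMIs. Nuclei with such a UMI had 103 Pdlim3 CPM (95.8 to 111) and those without had 140 (132 to 148). Ldb3 was also lower in the nuclei with such a UMI, at 1673 CPM beside 1873, Pdlim5 was higher, at 1295 beside 1114, and Enah did not differ beyond counting error, at 326 beside 323. Detection of the 2 features depends on depth, and the part of depth in these differences was not tested.

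Markers of other cell types in the cardiomyocyte class varied between libraries, and the direction differed between types. The 8 pericyte markers summed to 327 CPM in the corrected, 150 in the Rbm20_homo, 226 in the Rbm20_het and 378 in the WT cardiomyocytes. In the same order, the 6 lymphatic endothelial markers summed to 140, 72.5, 128 and 143 CPM, and the 9 endothelial markers to 124, 89.3, 110 and 117. None of these markers was at 0. The 8 fibroblast markers, none at 0, summed to 143 CPM in the corrected, 210 in the Rbm20_homo, 124 in the Rbm20_het and 90.9 in the WT cardiomyocytes, beside 5805 to 6791 CPM in the fibroblast-like class. The 6 endocardial markers, none at 0, summed to 87.3 CPM in the corrected, 108 in the Rbm20_homo, 74.9 in the Rbm20_het and 59.6 in the WT cardiomyocytes, beside 6020 to 7561 CPM in their own class, and the 6 smooth muscle markers, of which Cnn1 was at 0 in the corrected library, to 5.61 to 7.72 CPM. The Pdlim3 level of Rbm20_homo cardiomyocytes, 461 CPM, was above that of the endocardial-like class (410 CPM) and of the fibroblast-like class (155 CPM) of the same library. The part of these marker differences in the member levels was not tested. The 6 atrial markers, of which Sln and Bmp10 were at 0 in all libraries, Myl7 in Rbm20_het and Dkk3 in WT, summed to 42.6 CPM in the corrected, 939 in the Rbm20_homo, 36.3 in the Rbm20_het and 16.01 in the WT cardiomyocytes.

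The members' relatives did not share one pattern. Of 6, Pdlim2 was called higher and Rtn2 lower in Rbm20_homo than in WT, 3 were not called, and Rtn1 had too few UMIs. That is 1 of 5 tested in each direction, beside 7.09% of 11894 genes called higher and 12.2% lower. Pdlim2, a PDZ-LIM gene better known from immune and other non-muscle cells, had 9 UMIs in the corrected, 52 in the Rbm20_homo, 8 in the Rbm20_het and 9 in the WT cardiomyocytes, a ratio of Rbm20_homo over WT of 4.66 with a wide interval (2.27 to 10.8). Rtn2, a reticulon like Rtn4, had 6.42 CPM in the corrected, 1.63 in the Rbm20_homo, 5.42 in the Rbm20_het and 5.25 in the WT cardiomyocytes, a log2 ratio of Rbm20_homo over WT of −1.69 (−2.32 to −1.08). Rtn3 lay between 260 and 282 CPM in all 4. Of the Ena/VASP relatives of Enah, Vasp had 14.5 CPM in the corrected, 16.1 in the Rbm20_homo, 12.8 in the Rbm20_het and 11.5 in the WT cardiomyocytes. Evl had 37.9 CPM in the corrected, 22.6 in the Rbm20_homo, 36.7 in the Rbm20_het and 30.7 in the WT cardiomyocytes, so it was lowest where Enah was highest.

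Among 24 other genes of the Z-disc and intercalated disc, 21 were tested in Rbm20_homo over WT. Of these, 7 were higher past the bound (Myot, Csrp3, Synpo2l, Flnc, Xirp2, Tln1 and Zyx) and 2 lower (Nebl and Tcap). Over all genes tested, 7.09% were higher and 12.2% lower. The median log2 ratio of the list was 0.50, beside −0.19 over all genes. Zyx, which encodes the focal adhesion protein zyxin, a binding partner of Enah, had 7.01 CPM in the corrected, 29.1 in the Rbm20_homo, 9.28 in the Rbm20_het and 9.49 in the WT cardiomyocytes. Tcap, the titin cap at the Z-disc, had 487 CPM in the corrected, 290 in the Rbm20_homo, 475 in the Rbm20_het and 677 in the WT cardiomyocytes. In the corrected library over Rbm20_homo, 8 of 22 tested were lower and 1 was higher, Tcap, beside 5.18% of all genes lower and 7.6% higher. In Rbm20_het over WT and in the corrected library over WT, 0 of 22 were past the bound in either direction. Over all genes, 1.93% were higher and 1.87% lower in the first of these comparisons. In the second, 2.24% were higher and 2.88% lower.

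Of 20 genes reported as binding partners of the members, 17 were tested in Rbm20_homo over WT. Of these, 4 were higher (Actn4, Tpm2, Myot and Zyx) and 1 was lower (Pgm1), beside 7.09% of all genes tested higher and 12.2% lower. The median log2 ratio of the partners was 0.01, beside −0.19 over all genes tested. Tpm2, beta-tropomyosin, was the partner with the largest difference, at 20.7 CPM in the corrected, 133 in the Rbm20_homo, 10.7 in the Rbm20_het and 1.71 in the WT cardiomyocytes. Like Pdlim3, Tpm2 was also past the bound in Rbm20_het over WT and in the corrected library over WT. Of 18 other genes reported as RBM20 splicing targets, 1 was higher (Myom1) and 1 lower (Nfia) in Rbm20_homo than in WT. That is near the shares over all genes, and the median log2 ratio of the targets, −0.17, is near the −0.19 over all genes. Myot and Zyx each belong to more than 1 of these lists.

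Genes whose centred log2 CPM over the 4 libraries lay closest to a member's were found among 9279 candidates. For Pdlim3 the nearest was Mybpc2, the fast skeletal myosin-binding protein C, at a Euclidean distance of 0.113 log2 units, with 12.0 CPM in the corrected, 40.4 in the Rbm20_homo, 9.93 in the Rbm20_het and 4.93 in the WT cardiomyocytes. The next were Blk and Kctd16. For Enah they were Fbln2, Pla2g3 and P3h2, and for Pdlim5 Arhgap20os, Zbtb38 and Mxd4. Over only 4 libraries, likeness is a description of level patterns.

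Outside the cardiomyocytes, the same genes ranked the cell classes differently. Pdlim3 in WT was highest in endocardial-like nuclei at 531 CPM (486 to 580), followed by smooth muscle-like at 304 (230 to 394), lymphatic endothelial-like at 168 (129 to 216) and fibroblast-like nuclei at 62.0 (55.3 to 69.3). The WT cardiomyocytes, at 53.9 CPM, were not separated from the fibroblast-like or pericyte-like nuclei by their intervals, and endothelial-like nuclei had 28.0 (21.4 to 35.9). In Rbm20_homo the cardiomyocytes, at 461 CPM, stood above endocardial-like nuclei at 410 (379 to 444), while the interval of smooth muscle-like nuclei, 329 to 454 around 388, just reached theirs. Cardiomyocytes thus had the highest Pdlim3 value of all classes in 1 library, while Pdlim3 was high in endocardial-like and smooth muscle-like nuclei in all 4.

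Enah in WT was highest in smooth muscle-like nuclei at 272 CPM (202 to 357) and cardiomyocytes at 252 (244 to 260), which their intervals do not separate, and then in endothelial-like nuclei at 118 (104 to 133). Rtn4 had a different distribution, with 397 CPM in macrophage-like (357 to 440) and 292 in fibroblast-like WT nuclei (278 to 308), and with cardiomyocytes the lowest of the 10 classes at 46.1 (42.8 to 49.5). Even at 129 CPM, the Rbm20_homo cardiomyocytes had the lowest Rtn4 level of the classes in that library. Pdlim1 in WT was highest in endocardial-like (151 CPM) and endothelial-like nuclei (149 CPM), and Pdlim7 in smooth muscle-like (90.6 CPM) and fibroblast-like nuclei (90.2 CPM), each beyond its cardiomyocyte level. The WT intervals do not separate Pdlim1 in those classes from pericyte-like nuclei at 134 CPM, or Pdlim7 from lymphatic endothelial-like nuclei at 74.5 CPM. Pdlim4, with at most 49.3 CPM, was highest in lymphatic endothelial-like nuclei of each library, at 49.3 CPM in the corrected, 27.1 in the Rbm20_homo, 34.5 in the Rbm20_het and 38.6 in the WT library, on 14 to 21 UMIs each, with intervals that overlap those of macrophage-like nuclei. Pdlim5 in WT was highest in cardiomyocytes and had 193 to 530 CPM in each of the other classes.

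**Figure D4:**
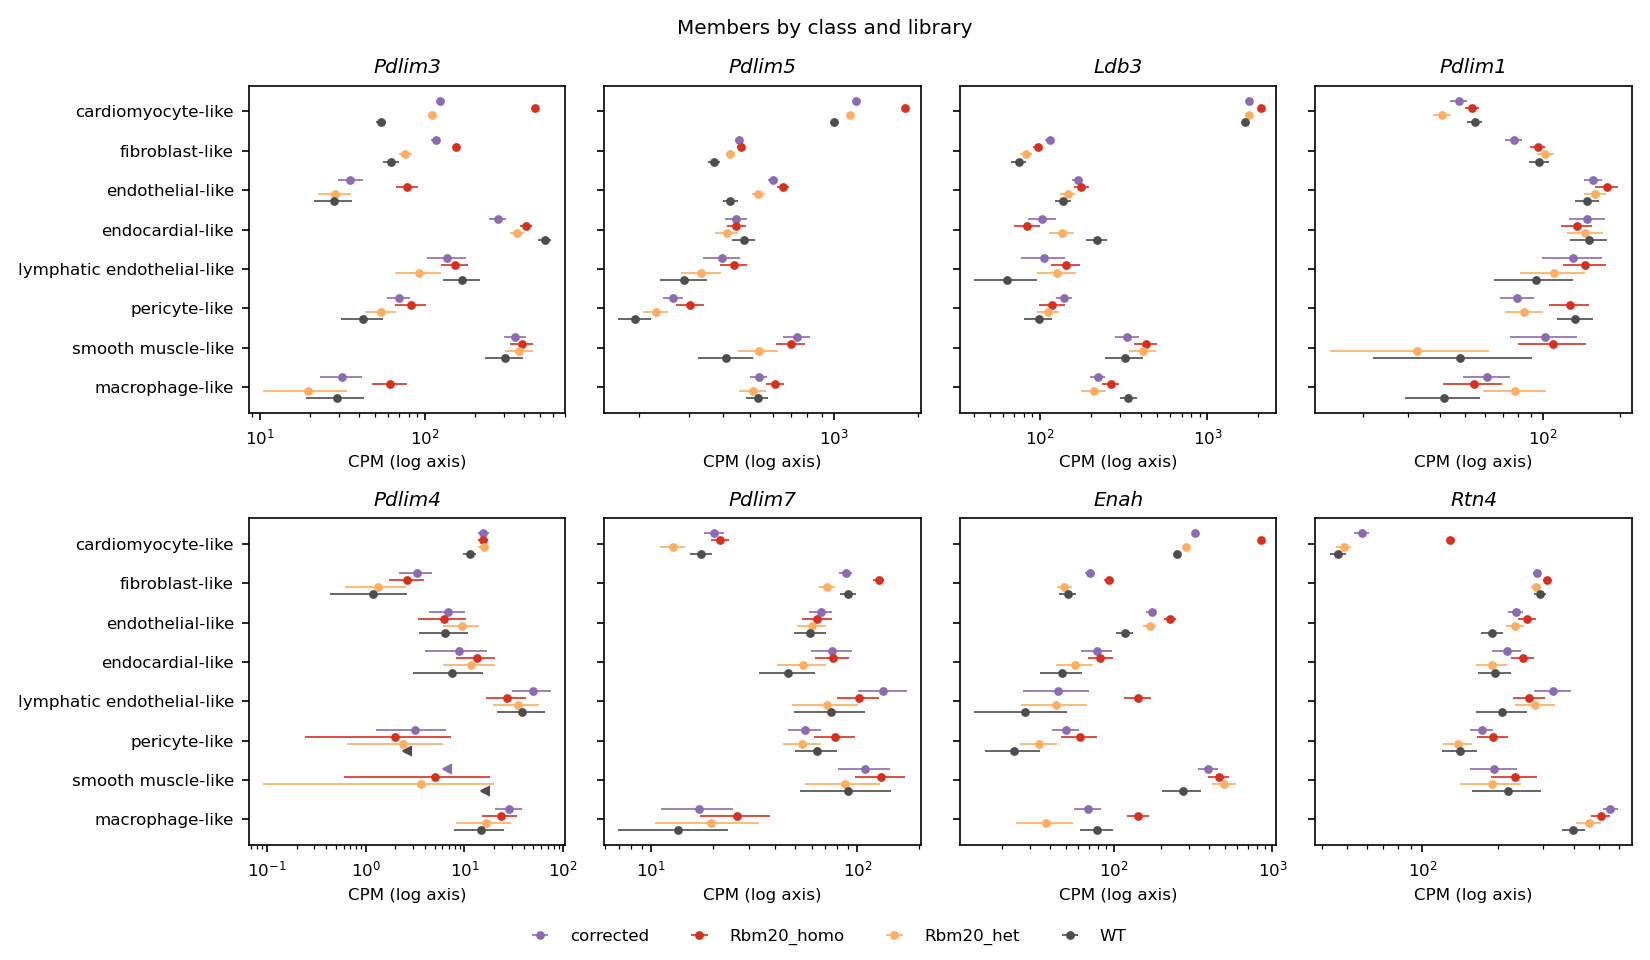
Level (CPM, log axis) of each gene in 8 cell classes, with 4 points per class for the corrected, Rbm20_homo, Rbm20_het and WT libraries from top to bottom and 95% Poisson intervals; a left-pointing marker stands at the limit that a count of 0 allows. Ldb3 is highest in cardiomyocytes in every library, Rtn4 is lowest there, and Pdlim3 is high in endocardial-like and smooth muscle-like nuclei of all libraries.

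Free RNA from cardiomyocytes could carry these genes into other nuclei, so their UMIs were set against those that each class would hold if its Ttn and Ryr2 UMIs came with the members in the cardiomyocyte ratio of the same library. Ldb3 lay at 0.666 to 1.05 times that number in fibroblast-like, endothelial-like, endocardial-like, lymphatic endothelial-like, pericyte-like and macrophage-like nuclei, near or under that background. In fibroblast-like and endothelial-like nuclei the whole interval lay under 1 in all 4 libraries, so the number exceeds the Ldb3 found there. Whether it is also too high for other members was not tested, so the CPM given below as above it are approximate. In smooth muscle-like nuclei Ldb3 lay above it in all 4 libraries, at 2.34 in the corrected (1.98 to 2.75), 2.42 in the Rbm20_homo (2.07 to 2.81), 3.01 in the Rbm20_het (2.48 to 3.62) and 2.83 in the WT library (2.16 to 3.64). Pdlim3 in endocardial-like nuclei was 26.4 times the cardiomyocyte ratio in the corrected, 14.8 in the Rbm20_homo, 42.1 in the Rbm20_het and 80.3 in the WT library. Cardiomyocyte Pdlim3 itself differed between libraries, so these multiples do not compare endocardial levels between them. In macrophage-like nuclei, Pdlim3 stood at 1.90 times the cardiomyocyte ratio in the corrected (1.40 to 2.52), 0.914 in the Rbm20_homo (0.707 to 1.16), 1.36 in the Rbm20_het (0.726 to 2.33) and 2.55 in the WT library (1.67 to 3.74). The whole interval lay above 1 in the corrected and WT libraries, and the intervals of Rbm20_homo and Rbm20_het include 1.

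**Figure D5:**
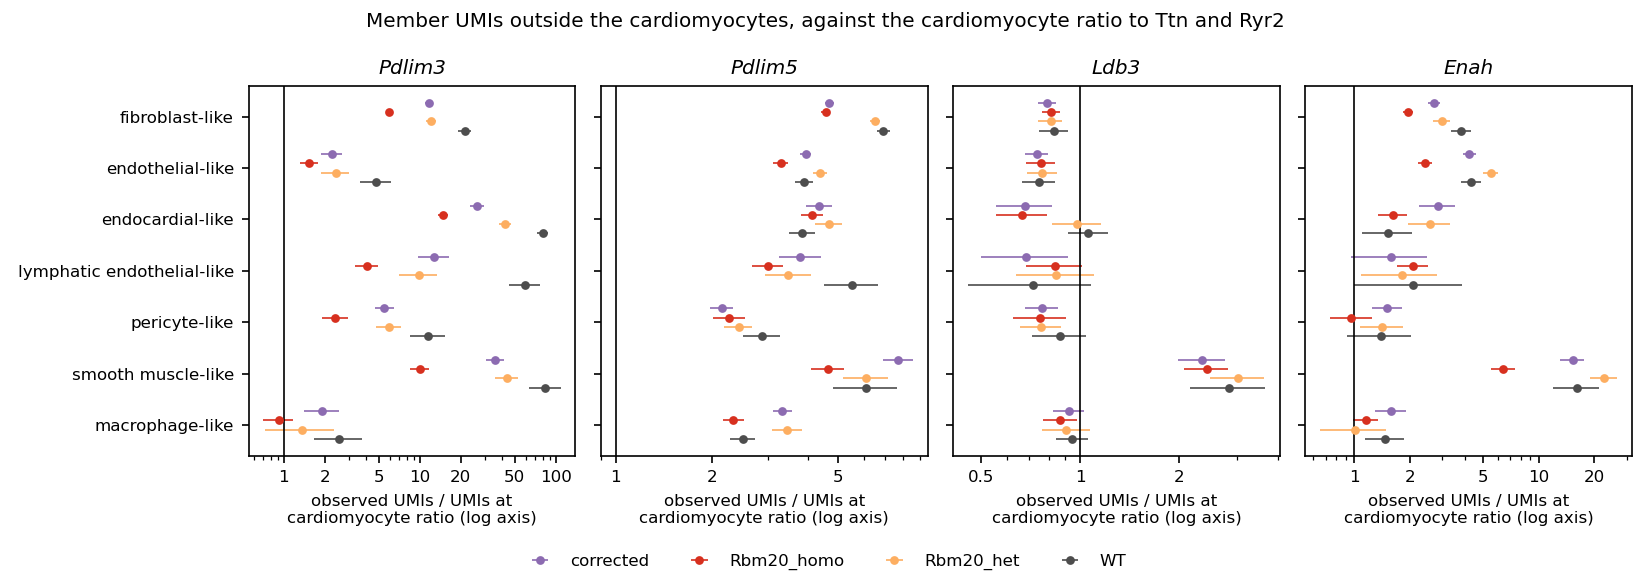
UMIs of Pdlim3, Pdlim5, Ldb3 and Enah in 7 cell classes other than cardiomyocytes, divided by the UMIs that the class would hold at the cardiomyocyte ratio of the gene to Ttn and Ryr2 in the same library (log axis, 95% Poisson intervals, line at 1), with the corrected, Rbm20_homo, Rbm20_het and WT libraries from top to bottom. Ldb3 sits near or under 1 except in smooth muscle-like nuclei, where it lies between 2.34 and 3.01.

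In fibroblast-like nuclei, 2 of the 7 members tested were called higher in Rbm20_homo than in WT, Pdlim3 and Enah, beside 5.95% of 11097 genes called higher and 3.92% lower. Pdlim3 had 116 CPM in the corrected, 155 in the Rbm20_homo, 76.1 in the Rbm20_het and 62.0 in the WT fibroblast-like nuclei, a ratio of Rbm20_homo over WT of 2.50 (2.21 to 2.83). The corrected library was also past the bound against WT for Pdlim3, at 1.87-fold (1.65 to 2.13), 1 of 7 members tested, beside 1.45% of 10651 genes higher and 1.04% lower. At the cardiomyocyte ratio, the Ttn and Ryr2 UMIs of the class would carry 9.99 Pdlim3 CPM in the corrected, 26.1 in the Rbm20_homo, 6.33 in the Rbm20_het and 2.89 in the WT library, so 106, 129, 69.8 and 59.1 CPM lay above it in that order. Enah had 71.1 CPM in the corrected, 93.5 in the Rbm20_homo, 49.1 in the Rbm20_het and 51.4 in the WT fibroblast-like nuclei, of which 44.8, 45.6, 32.6 and 37.9 CPM lay above the cardiomyocyte ratio in that order.

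The fibroblast-like class was also made of different clusters. A cluster whose leading genes included Cilp, Ltbp2 and Postn held 2706 of the Rbm20_homo and 63 of the WT nuclei, and there Pdlim3 had 177 CPM in the corrected, 133 in the Rbm20_homo, 128 in the Rbm20_het and 214 in the WT nuclei (150 to 294). A cluster led by Gfra1, Col6a6, Tll2 and Fgf10 held 338 Rbm20_homo and 1704 WT nuclei, and there Pdlim3 had 117 CPM in the corrected, 340 in the Rbm20_homo, 75.5 in the Rbm20_het and 62.6 in the WT nuclei. The direction of the Pdlim3 difference between Rbm20_homo and WT was therefore opposite in the 2 clusters. Pdlim7 had 88.0 CPM in the corrected, 127 in the Rbm20_homo, 71.7 in the Rbm20_het and 90.2 in the WT fibroblast-like nuclei, a ratio of Rbm20_homo over WT of 1.41 (1.26 to 1.57), short of the bound.

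In endothelial-like nuclei, Pdlim3 and Enah were again the members called higher in Rbm20_homo than in WT, 2 of 7 tested, beside 3.73% of 7371 genes higher and 2.24% lower. Pdlim3 had 35.4 CPM in the corrected, 78.2 in the Rbm20_homo, 28.5 in the Rbm20_het and 28.0 in the WT endothelial-like nuclei, a ratio of Rbm20_homo over WT of 2.80 (2.08 to 3.81). Above the cardiomyocyte ratio lay 19.6 CPM in the corrected, 27.1 in the Rbm20_homo, 16.7 in the Rbm20_het and 22.1 in the WT library. Ldb3 stood at only 0.738 to 0.765 of that ratio in this class, so these CPM may be too low. The part of free RNA in the Pdlim3 difference was not tested. Enah had 174 CPM in the corrected, 227 in the Rbm20_homo, 170 in the Rbm20_het and 118 in the WT endothelial-like nuclei, and 133, 133, 139 and 90.3 CPM of it lay above the cardiomyocyte ratio in that order.

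In endocardial-like nuclei Pdlim3 had 277 CPM in the corrected, 410 in the Rbm20_homo, 361 in the Rbm20_het and 531 in the WT library. Its ratio of Rbm20_homo over WT was 0.772 (0.685 to 0.871), the opposite direction to cardiomyocytes, and the corrected level over WT was 0.521 (0.449 to 0.605), past the bound. In that last comparison 2 of 7 members tested were lower, Pdlim3 and Ldb3, beside 0.941% of 4355 genes lower and 0.666% higher. Ldb3 was lower in Rbm20_homo than in WT in this class, 1 of 7 members tested, beside 2.28% of 5214 genes lower and 3.38% higher, at 103 CPM in the corrected, 83.9 in the Rbm20_homo, 135 in the Rbm20_het and 218 in the WT nuclei. The summed Ttn and Ryr2 level of these nuclei was 3058 CPM in the corrected, 1932 in the Rbm20_homo, 2580 in the Rbm20_het and 4466 in the WT library, and Ldb3 stood at 0.666 to 1.05 of the cardiomyocyte ratio.

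In smooth muscle-like nuclei, 0 of 6 members tested were called between Rbm20_homo and WT, beside 2.57% of 1091 genes higher and 1.19% lower. Enah had 394 CPM in the corrected, 458 in the Rbm20_homo, 499 in the Rbm20_het and 272 in the WT library there, on 51 to 183 UMIs, and a ratio of Rbm20_homo over WT of 1.68 (1.23 to 2.35). Pdlim3 had 352 CPM in the corrected, 388 in the Rbm20_homo, 372 in the Rbm20_het and 304 in the WT library. In macrophage-like nuclei 0 of 6 were called, beside 3.12% of 4653 genes higher and 3.31% lower, and Rtn4 had 556 CPM in the corrected, 510 in the Rbm20_homo, 457 in the Rbm20_het and 397 in the WT library. In pericyte-like nuclei Enah was called higher in Rbm20_homo than in WT, 1 of 7 tested, beside 2.39% of 4309 genes higher and 2.76% lower, on 61 and 27 UMIs, and its Rbm20_homo level stood at 0.965 (0.738 to 1.24) of the cardiomyocyte ratio.

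In lymphatic endothelial-like nuclei Enah was the member called higher in Rbm20_homo than in WT, 1 of 7 tested, beside 2.39% of 2636 genes higher and 0.607% lower. It had 44.6 CPM in the corrected, 142 in the Rbm20_homo, 43.7 in the Rbm20_het and 27.6 in the WT library, a ratio of Rbm20_homo over WT of 5.15 (2.69 to 11.1) on 105 and 10 UMIs. Enah stood at 1.59 times the cardiomyocyte ratio in the corrected (0.954 to 2.48), 2.07 in the Rbm20_homo (1.70 to 2.51), 1.80 in the Rbm20_het (1.09 to 2.82) and 2.08 in the WT library (0.998 to 3.83). In cycling-like nuclei, 135 in Rbm20_homo and 71 in WT, Pdlim3 and Enah were called higher in Rbm20_homo than in WT, 2 of 6 tested, beside 7.31% of 2558 genes higher and 5.08% lower. The ratio of Rbm20_homo over WT there was 6.29 for Pdlim3 (2.77 to 17.6), on 81 and 6 UMIs, and 3.19 for Enah (1.96 to 5.47), on 130 and 19 UMIs. The cardiomyocyte ratio would give 64.9 of the 124 Pdlim3 CPM in Rbm20_homo and 4.65 of 19.7 in WT. For Enah it would give 119 of 199 CPM in Rbm20_homo and 21.7 of 62.3 in WT. Without doublet removal, the cycling-like cluster was also enriched for 6 of 7 macrophage, 4 of 6 lymphatic endothelial and 3 of 6 endocardial markers. The part of cell types in these ratios was not tested.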

How the data were processed

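Nuclei of 4 libraries were profiled with the 10x Genomics 3′ v3 assay. The library protocol text also mentions CD45+ cells, while the labels describe total cardiac nuclei. The authors deposited unnormalized UMI counts (whole numbers for each gene in each barcode), per the file headers and the values. Per the submitters' processing notes, the build was mm10 (GRCm38) and the tools were Cell Ranger 6.1.1 and Seurat 4, while version 4.0.0 of Cell Ranger stands in the headers. Whether introns were counted is not given in the sources used here, and 3′ counts of nuclei depend on it.

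Barcodes under 300 genes or over 5% mitochondrial UMIs were dropped. Because the automatic Scrublet threshold marked 0 to 2955 barcodes per library, the top scores were removed as doublets at 0.8% per 1000 barcodes. Leiden clustering followed (resolution 0.8, 2000 variable genes, 30 components; scanpy 1.11.5, leidenalg 0.10.2), with the members and list genes left out of the variable genes. Of 27 clusters, those with at least 3 enriched markers of a type were named, and those read as mixed or led by haemoglobin genes stayed unnamed. Some named clusters were also enriched for markers of a related type. The endocardial-like cluster was enriched for 8 of 9 endothelial markers, and the smooth muscle-like cluster for 6 of 8 pericyte markers. The lymphatic endothelial-like cluster was enriched for 6 of 9 endothelial and 5 of 6 endocardial markers, and an endothelial-like cluster for 3 of 6 endocardial markers. UMIs were summed per class and library. Intervals are exact Poisson for sums, exact conditional binomial for ratios and Clopper-Pearson for shares (scipy 1.17.1), all at 95%. UMI intervals do not cover variation between hearts. The calling rule was tested on simulated counts. A count of 0 allows up to 3 counts. Alternatives covered scaling (edgeR 4.0.16 for TMM), doublets, class assignment, resolution, thinning, filters and thresholds. All 8 members, their 6 relatives and up to 4 genes per list, ranked on the size of their log2 ratio between Rbm20_homo and WT, could be named with values. Other called list genes are named only as counted. The results for a list of other LIM-domain genes and 1 cluster gene are not reported here. Members and lists were chosen with earlier results of these data known. Gene positions are from GENCODE vM21, where 32158 of 32285 gene IDs matched, and promoter sequences from RefSeq (GRCm38.p6).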

Additional observations from a re-analysis of the deposited data

Results flagged for a closer look

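Pdlim3 was lower in Rbm20_homo than in WT in endocardial-like nuclei, at a log2 ratio of −0.37, and higher in cardiomyocytes, at 3.10, with both counting intervals clear of 0. Ldb3 was lower in endocardial-like nuclei, at −1.37, and in macrophage-like nuclei, at −0.34, and higher in cardiomyocytes, at 0.32. Each was picked out because the same pair of libraries differed in opposite directions in different cell classes. With 1 library per genotype, none of these differences between classes was tested. In both of those classes Ldb3 stood between 0.666 and 1.05 of the level that the class would have at the cardiomyocyte ratio to Ttn and Ryr2, while Pdlim3 in endocardial-like nuclei stood at 14.8 in Rbm20_homo and 80.3 in WT. Those multiples are set against cardiomyocyte Pdlim3, which was itself 461 CPM in Rbm20_homo and 53.9 in WT. In endocardial-like nuclei, 383 Pdlim3 CPM in Rbm20_homo and 525 in WT lay above the cardiomyocyte ratio.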

How the results depend on the processing

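The number of members called between Rbm20_het and WT in cardiomyocytes, 1, was 0 with nuclei thinned to 1000 UMIs and with the bound set at 2-fold. In Rbm20_homo over WT, the 2 fibroblast-like calls became 1 (Pdlim3) with a floor of 1000 genes and a ceiling of 1% mitochondrial UMIs, and with the 2-fold bound, and the 2 endothelial-like calls became 1 (Pdlim3) with thinning and with the 2-fold bound. The cardiomyocyte counts of Rbm20_homo over WT and of the corrected library over Rbm20_homo and over WT stayed within 1.5 times their value under each alternative run. For Pdlim5, however, the call depended on the setting. Its log2 ratio in the corrected library over Rbm20_homo, −0.58, ranged from −0.74 to −0.55 over 9 alternatives, on both sides of the 1.5-fold bound. In Rbm20_homo over WT its interval, 1.76 to 1.83, lies under the 2-fold bound. Alternatives were not run for Rbm20_homo over Rbm20_het. Of 288 recomputed log2 ratios in cardiomyocytes, 224 moved by less than their counting error, 64 moved by more and 0 of the called ones changed sign. Among uncalled ones, the sign changed for Pdlim1 in Rbm20_homo over WT (−0.05 to 0.21), Rtn4 in Rbm20_het over WT (−0.02 to 0.14), and Pdlim7 (−0.27 to 0.03) and Pdlim4 (−0.35 to 0.06) in the corrected library over Rbm20_homo. The log2 ratio of Pdlim3 in Rbm20_homo over WT ranged from 3.07 to 3.30, of Enah from 1.72 to 1.95, of Rtn4 from 1.35 to 1.69 and of Pdlim5 from 0.84 to 1.05. The largest shift, 0.80, was for Pdlim4 after thinning, where few UMIs were left. Putting the haemoglobin-led cluster with the cardiomyocytes, an alternative chosen after seeing the data, shifted log2 ratios by at most 0.05 after rounding and kept every count. No paired analysis was possible because each genotype has 1 library. Depth limits Pdlim4 outside cardiomyocytes to 43 UMIs or fewer per class and library, and smooth muscle-like WT sums to 77 UMIs or fewer for each member.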
